A study of Homo sapiens with 8 samples.

Results

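Short cassette exons of 31 to 50 nt were followed in U2OS cells, a human osteosarcoma line, after depletion of CHERP by siRNA. A cassette exon, listed as a skipped exon (SE) event in the tables, is an internal exon that is either joined into the mRNA or left out together with its flanking introns. The exons were chosen by length alone, with each exon entered at the event that had the most reads in whole cells. Exons listed in the cytoplasm alone were entered at the event with the most reads there. There were 2777 such exons in 2207 genes, among 52810 distinct skipped exons of all lengths. Of these, 2554 were listed in whole cells, 223 were listed in the cytoplasm alone, and 1397 in all were tested in the cytoplasm.

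The cells received 20 nM of an siRNA against EGFP, a reporter gene used here as the control target, or 20 nM of siRNA #2 against CHERP, and RNA was taken after 48 h from whole cells or from the cytoplasm. The 4 groups were thus whole-cell EGFP siRNA, whole-cell CHERP siRNA, cytoplasmic EGFP siRNA and cytoplasmic CHERP siRNA, with 2 biological replicates in each and 8 libraries in all. A single siRNA against CHERP was sequenced, so loss of CHERP and any other effect of that siRNA cannot be told apart. The inclusion level of an exon is the share of transcripts that hold it, from 0 to 1, computed from the reads on each form divided by the effective length of that form. Values are given as mean ± SD (n = 2), and differences are CHERP minus EGFP siRNA.

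Splicing starts when U1 snRNP binds the 5′ splice site and U2AF and U2 snRNP recognise the 3′ splice site and the branch point. CHERP is known as a protein that associates with U2 snRNP. In genes with long introns, splice sites are usually paired across the exon, and very short exons leave little room for the factors bound at either end and for exonic enhancers. Short cassette exons are also known for being regulated in groups, as the microexons of neurons are.

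Exons that became more included were the larger group. In whole cells 38 of the 2554 exons of 31 to 50 nt (1.49%) were more included after CHERP siRNA and 10 (0.392%) were less included, by a quasi-binomial test with adjusted p under 0.05. Over exons of all lengths 0.507% were called higher and 0.513% were called lower. Among exons of any other length the counts were 208 higher and 239 lower of 45951. In the cytoplasm 10 of 1397 exons of 31 to 50 nt (0.716%) were called higher and 0 lower, against 0.167% higher and 0.122% lower over exons of all lengths. An unadjusted p under 0.05 by the same test was reached by 216 of the 2554 short exons in whole cells and by 68 of 1397 in the cytoplasm. Among exons of other lengths it was reached by 2662 of 45951 and by 824 of 23139. The test took its spread from a trend over all events, and the replicate spread of the exon itself did not enter. The count depended on single libraries. It was 44 without the first and 27 without the second EGFP siRNA library in whole cells, and 21 without either CHERP siRNA library. In the cytoplasm it was 5 without the first and 6 without the second EGFP siRNA library, and 8 and 7 without the first and the second CHERP siRNA library. limma on the log2 odds of inclusion called 0 of the 2554 exons and 0 of all 63977 whole-cell events. Its unadjusted p was under 0.05 for 241 of the 2554 short exons, of which 183 were higher, and for 5266 of all 63977 events.

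The sequences below show exons with a higher level, with 20 bases of the upstream intron and 8 of the downstream intron in lower case and the exon in capitals. They were read 5′ to 3′ from GRCh37, the assembly also known as hg19, and are wholly coding in GENCODE. They are shown because they span the range from a reading frame kept (a length divisible by 3) to a reading frame shifted, and from strong to weak 3′ splice sites.
OSBPL9, 39 nt, chr1:52221972-52222038, strand +: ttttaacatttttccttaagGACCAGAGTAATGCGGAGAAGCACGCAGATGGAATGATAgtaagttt
SUPT20H, 36 nt, chr13:37622693-37622756, strand -: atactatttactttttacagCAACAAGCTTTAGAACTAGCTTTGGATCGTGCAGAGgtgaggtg
CD47, 32 nt, chr3:107770778-107770837, strand -: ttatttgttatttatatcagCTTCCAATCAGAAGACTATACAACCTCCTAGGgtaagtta
PARD3, 39 nt, chr10:34661418-34661484, strand -: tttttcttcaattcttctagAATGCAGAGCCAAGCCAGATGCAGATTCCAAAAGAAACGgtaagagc
PCBP2, 39 nt, chr12:53861569-53861635, strand +: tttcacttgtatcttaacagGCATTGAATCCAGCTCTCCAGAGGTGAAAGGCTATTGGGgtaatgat
MBNL1, 36 nt, chr3:152173311-152173374, strand +: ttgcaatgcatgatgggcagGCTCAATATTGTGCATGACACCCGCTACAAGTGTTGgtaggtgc
HNRNPA2B1, 36 nt, chr7:26237443-26237506, strand -: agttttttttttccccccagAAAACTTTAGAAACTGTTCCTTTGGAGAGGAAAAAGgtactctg
SEP15, 50 nt, chr1:87333728-87333805, strand -: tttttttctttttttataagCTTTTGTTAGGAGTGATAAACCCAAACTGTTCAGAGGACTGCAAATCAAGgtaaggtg
The next exons were called higher in the cytoplasm and not in whole cells.
DNM1L, 33 nt, chr12:32891178-32891238, strand +: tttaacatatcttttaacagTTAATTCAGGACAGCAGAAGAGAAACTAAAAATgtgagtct
GNAS, 45 nt, chr20:57473976-57474048, strand +: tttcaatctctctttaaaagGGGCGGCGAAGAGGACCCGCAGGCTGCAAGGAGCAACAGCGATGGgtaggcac
The exons with a lower level are shown for the contrast in the intron before the exon.
KIF13A, 39 nt, chr6:17790095-17790161, strand -: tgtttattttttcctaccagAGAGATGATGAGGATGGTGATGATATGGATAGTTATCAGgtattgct
PPFIBP1, 33 nt, chr12:27829977-27830037, strand +: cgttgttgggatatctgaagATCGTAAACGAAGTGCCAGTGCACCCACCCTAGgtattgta
ENSA, 48 nt, chr1:150598947-150599022, strand -: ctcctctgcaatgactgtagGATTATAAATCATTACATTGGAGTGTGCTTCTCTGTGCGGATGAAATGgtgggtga

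The 3′ splice site score was a log2 odds sum over the last 20 intron bases and the first 3 exon bases, with higher values for sites closer to the average site. It was 10.9 for the OSBPL9 exon and 15.2 for HNRNPA2B1, whose intron has a long run of pyrimidines before its end, and -0.58 for MBNL1, whose intron has no such run. It was 3.82 for ENSA and 1.52 for PPFIBP1, whereas KIF13A had 13.6. The median was 10.6 over the 38 exons called higher, 6.28 over the 10 called lower and 10.5 over the 2506 not called in whole cells, against 9.20 over exons of other lengths. Upstream introns had a median of 4533.5 nt for exons called higher, 1581.5 nt for exons called lower and 2050.5 nt for exons not called. The 5′ splice site score had medians of 7.94, 7.11 and 8.51 in the same order. These medians are descriptions of small groups and were not tested. Of all 2777 exons, 98.9% were followed by GT and 99.9% were preceded by AG.

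Inclusion over all well-read short exons leaned the same way. In whole cells 1886 of the short exons had 20 or more reads per library on average, and 1194 of these (63.3%) had a higher mean level with CHERP siRNA, with a median difference of 0.0045. Of 37688 exons of other lengths, 49.8% had a higher mean level. Without the called exons it was 1156 of 1838 short exons (62.9%) and 442 of 699 in the cytoplasm (63.2%). In the cytoplasm 452 of 709 short exons (63.8%) had a higher mean level, against 49.6% of the others. Most of these differences were small, with quartiles of -0.0056 and 0.024 in whole cells.

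The share could be compared with the spread between replicates. Between a CHERP and an EGFP siRNA library, the 4 whole-cell pairs had 61.6% to 62.4% of the short exons higher in the CHERP library, counted over exons with unequal levels. Between the libraries of the same siRNA, that share was 50.5% and 49.6%. In the cytoplasm it was 60.6% to 63.0% between siRNAs and 51.6% and 47.4% within them. Exons of other lengths had 47.6% to 50.7% between siRNAs and 49.5% to 52.5% within them in whole cells. In short exons the shares between siRNAs all lay above those within an siRNA, in either fraction. In whole cells the other exons departed from an even share of higher and lower exons by no more than libraries of the same siRNA did. In the cytoplasm their pairs between siRNAs ran from 47.7% to about an even share, against 49.5% and 51.4% within siRNAs. Their largest departure there, toward lower levels, thus exceeded the spread between libraries. The pairs share libraries and are not independent, and each siRNA had only a single pair of its own libraries in a fraction.

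**Figure D1:**
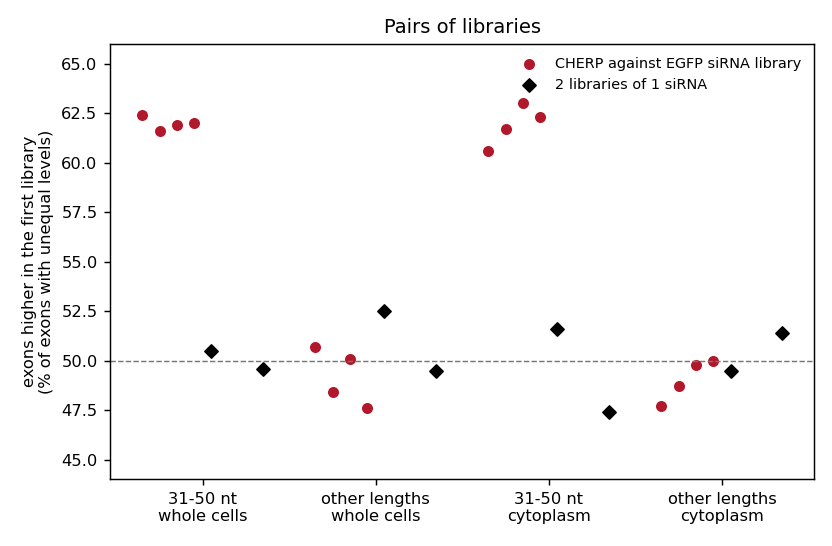
Share of exons with a higher inclusion level in the first library of a pair, in percent of exons with unequal levels and at least 20 mean reads, for exons of 31 to 50 nt and of other lengths in both fractions. Circles are CHERP against EGFP siRNA libraries and diamonds are libraries of the same siRNA; the circles of the short exons lie between 60.6% and 63.0%, above all diamonds.

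The direction changed with exon length. In whole cells 23 of 757 exons of up to 30 nt were called higher (3.04%) and 4 lower (0.528%), where exons of 31 to 50 nt had 1.49% and 0.392%. Exons of 51 to 80 nt had 63 of 8411 higher (0.749%) and 33 lower (0.392%). From 81 to 120 nt the balance turned, with 36 of 14868 higher (0.242%) and 79 lower (0.531%). Exons of 121 to 200 nt had 47 of 16347 higher (0.288%) and 78 lower (0.477%). Those over 300 nt had 25 of 1961 higher (1.27%) and 21 lower (1.07%). The share of well-read exons with a higher mean level went from 65.6% up to 30 nt through 63.3% at 31 to 50 nt and 56.0% at 51 to 80 nt to 49.6% at 81 to 120 nt, and the lowest share, 44.5%, was that of exons of 201 to 300 nt. The cytoplasm had 69.0%, 63.8%, 55.9% and 49.4% in the same order of the 4 shortest classes. Calls in the cytoplasm were few, with 8 higher and 0 lower of 485 exons up to 30 nt (1.65% higher), 10 and 0 of 1397 at 31 to 50 nt (0.716%), and 5 and 6 of 4319 at 51 to 80 nt (0.116%). At single lengths in whole cells the counts were too small to show whether there was a step at either edge of the range. Exons of 30 nt had 1 higher and 1 lower of 98 and exons of 31 nt had 2 higher and 0 lower of 74. At the upper edge, exons of 50 nt had 2 higher and 0 lower of 157 and exons of 51 nt had 3 higher and 2 lower of 252. Within the range, the share called higher was 1.86% at 31 to 35 nt, 1.77% at 36 to 40 nt, 1.37% at 41 to 45 nt and 1.21% at 46 to 50 nt, and these counts of 8, 10, 10 and 10 exons are close.

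**Figure D2:**
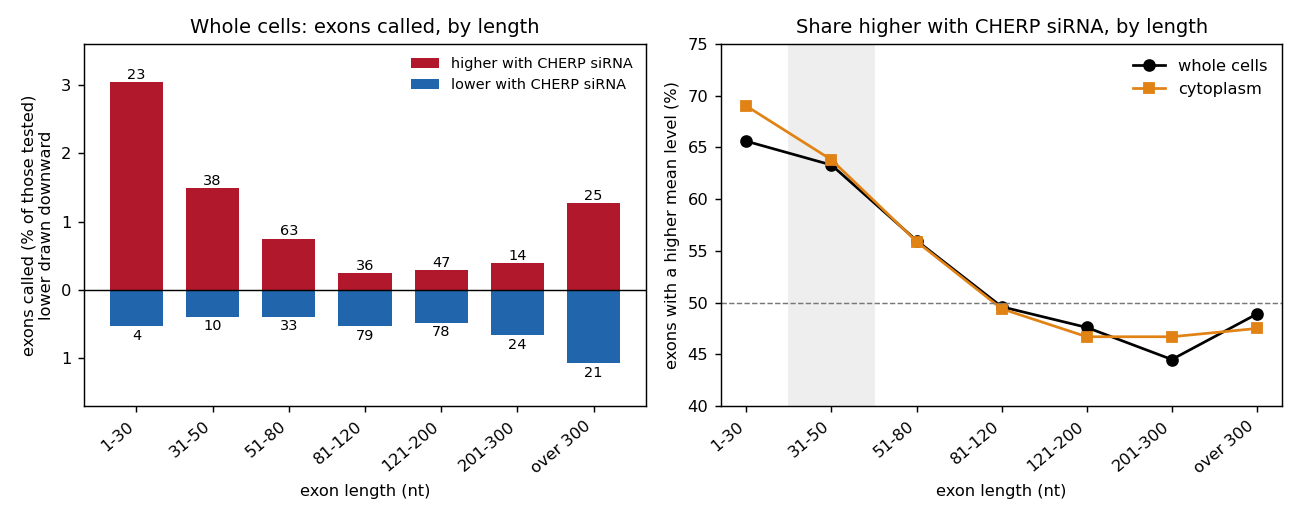
Left, exons called higher (red, upward) or lower (blue, downward) with CHERP siRNA in whole cells as percent of the exons tested in each length class in nt, with counts at the bars. Right, percent of exons with at least 20 mean reads whose mean inclusion level was higher with CHERP siRNA in whole cells (circles) and cytoplasm (squares); the shaded class of 31 to 50 nt had 63.3% and 63.8%.

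Exons with intermediate use held most of the calls. Among short exons with a control level from 0.1 to 0.5, 12 were called higher and 5 lower of 249, and from 0.5 to 0.9, 11 were called higher and 2 lower of 374. At control levels of 0 to 0.1, 11 were called higher and 0 lower of 451, where exons of other lengths had 0.954% higher and 0.755% lower. At control levels over 0.9, 4 were called higher and 3 lower of 1406. Exons of other lengths also had most calls at intermediate levels, with 1.6% higher and 2.34% lower from 0.1 to 0.5. From 0.5 to 0.9 they had 1.41% higher and 1.28% lower, where short exons had 2.94% and 0.535%. Over 0.9 the exons of other lengths had 0.123% and 0.206%. The share of well-read exons with a higher mean level was above 60% in each of these 4 classes, from 60.9% at the highest control levels to 73.2% at 0.5 to 0.9. Exons of other lengths had 47.8%, 38.2%, 60.9% and 49.6% from the lowest to the highest of these classes, so part of the pattern over classes was shared, and the classes were set with the same control libraries that enter the difference. Short exons were also less included to start with, since 480 of the 1886 well-read ones (25.5%) had a control level under 0.5, against 5647 of 37690 exons of other lengths.

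**Figure D3:**
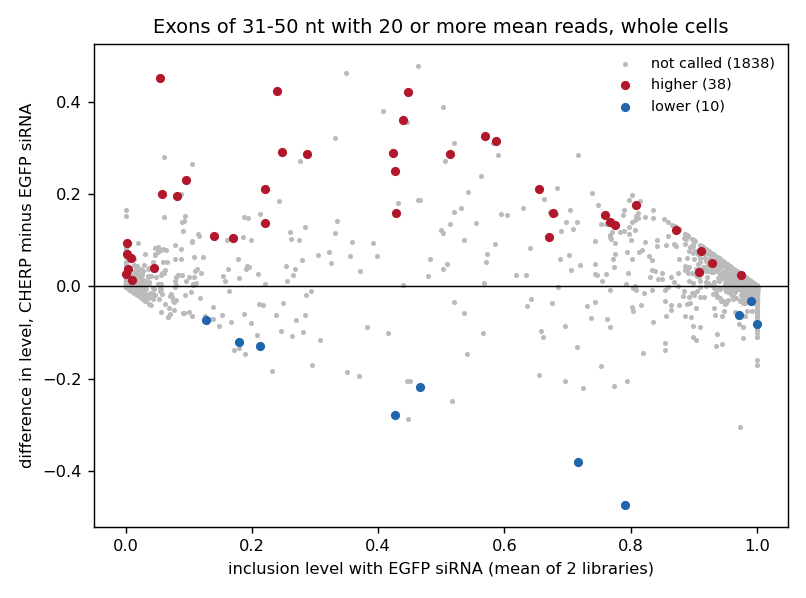
Difference in inclusion level (CHERP minus EGFP siRNA) against the control inclusion level for the exons of 31 to 50 nt with at least 20 mean reads in whole cells, 1 point per exon. Red and blue points are exons called higher (38) and lower (10); the red points spread over the whole range of control levels.

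The 3 largest gains were those of ZFAND1, OSBPL9 and SUPT20H. The 40 nt exon of ZFAND1, whose product takes part in clearing stress granules with the proteasome, had levels of 0.0357 and 0.0722 in the control libraries and 0.534 and 0.475 in the CHERP siRNA libraries. The exon went from rare to about as frequent as its absence, and the difference of 0.45 had an adjusted p of 1.61e-21 on 155 to 320 reads per library. OSBPL9 encodes a lipid transfer protein of the oxysterol-binding family. Its 39 nt exon had 0.238 and 0.243 against 0.644 and 0.683, and the difference of 0.423 was far above the SDs of 0.0032 and 0.028 (adjusted p = 6.32e-14). The 36 nt exon of SUPT20H, a subunit of the SAGA coactivator, had 0.48 and 0.416 against 0.822 and 0.913 (adjusted p = 0.00166). That call was lost when 1 library was left out, with an adjusted p of up to 0.427, as the exon had only 61 to 84 reads.

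Among the next gains by size were those of NAP1L4, PAPD4, DZIP3 and UBE2Q2. In NAP1L4, a histone chaperone, the 38 nt exon, exon 15 of 16 and coding in part, rose from 0.249 ± 0.0071 to 0.539 ± 0.029 (adjusted p = 2.56e-06). In PAPD4, a noncanonical poly(A) polymerase also named TENT2, the 44 nt exon had 0.535 and 0.605 against 0.939 and 0.851 (adjusted p = 0.00613). In DZIP3, an RNA-binding ubiquitin ligase, the 33 nt exon had 0.67 and 0.502 against 0.929 and 0.873 (adjusted p = 0.0308). UBE2Q2, a ubiquitin-conjugating enzyme, had 0.351 and 0.497 against 0.67 and 0.754 at its 49 nt exon (adjusted p = 0.0327). The control libraries of DZIP3 and UBE2Q2 differed by more than 0.1 in level, and both exons passed in only 1 of the 4 fits that leave out a library. The PAPD4 call passed in 2 of the 4, with an adjusted p of up to 0.425.

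Gains were also called in CD47, CD46, PARD3, DLG1 and LIMCH1. CD47, the surface protein that restrains phagocytosis, rose at a 32 nt exon, exon 8 of 11, from 0.513 ± 0.076 to 0.799 ± 0.031 (adjusted p = 0.000821). CD46, a complement regulator whose membrane-proximal region is known to be alternatively spliced, rose at a 45 nt exon from 0.427 ± 0.027 to 0.676 ± 0.013 (adjusted p = 1.28e-05). PARD3, a scaffold of the cell polarity complex, had 0.306 and 0.269 against 0.577 and 0.57 at its 39 nt exon (adjusted p = 2.5e-06). DLG1, a scaffold at cell junctions, rose at a 34 nt exon from 0.0955 ± 0.023 to 0.326 ± 0.076 (adjusted p = 0.0369). LIMCH1, a regulator of nonmuscle myosin, had 0.502 and 0.377 against 0.704 and 0.898 at its 31 nt exon (adjusted p = 0.0399). The calls of CD46 and PARD3 held in all 4 fits that leave out a library, the call of CD47 in 2, that of LIMCH1 in 1 and that of DLG1 in 0, where the adjusted p reached 0.956.

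The remaining exons of the 15 largest gains were those of SUN3, PPHLN1 and EXOC1. SUN3, a nuclear envelope protein best known from testis, rose at a 36 nt exon from 0.655 ± 0.0092 to 0.867 ± 0.034 on 446 to 952 reads (adjusted p = 6.29e-12). PPHLN1, a subunit of the HUSH silencing complex, had 0.25 and 0.192 against 0.406 and 0.457 at a 43 nt exon (adjusted p = 0.0139). EXOC1, an exocyst subunit, had 0.0441 and 0.0713 against 0.297 and 0.219 at a 45 nt exon (adjusted p = 0.00218). The libraries of the 2 siRNAs did not overlap at these exons, which was a condition for naming them. The SUN3 call held in all 4 fits that leave out a library, the EXOC1 call in 3 and the PPHLN1 call in 1.

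**Figure D4:**
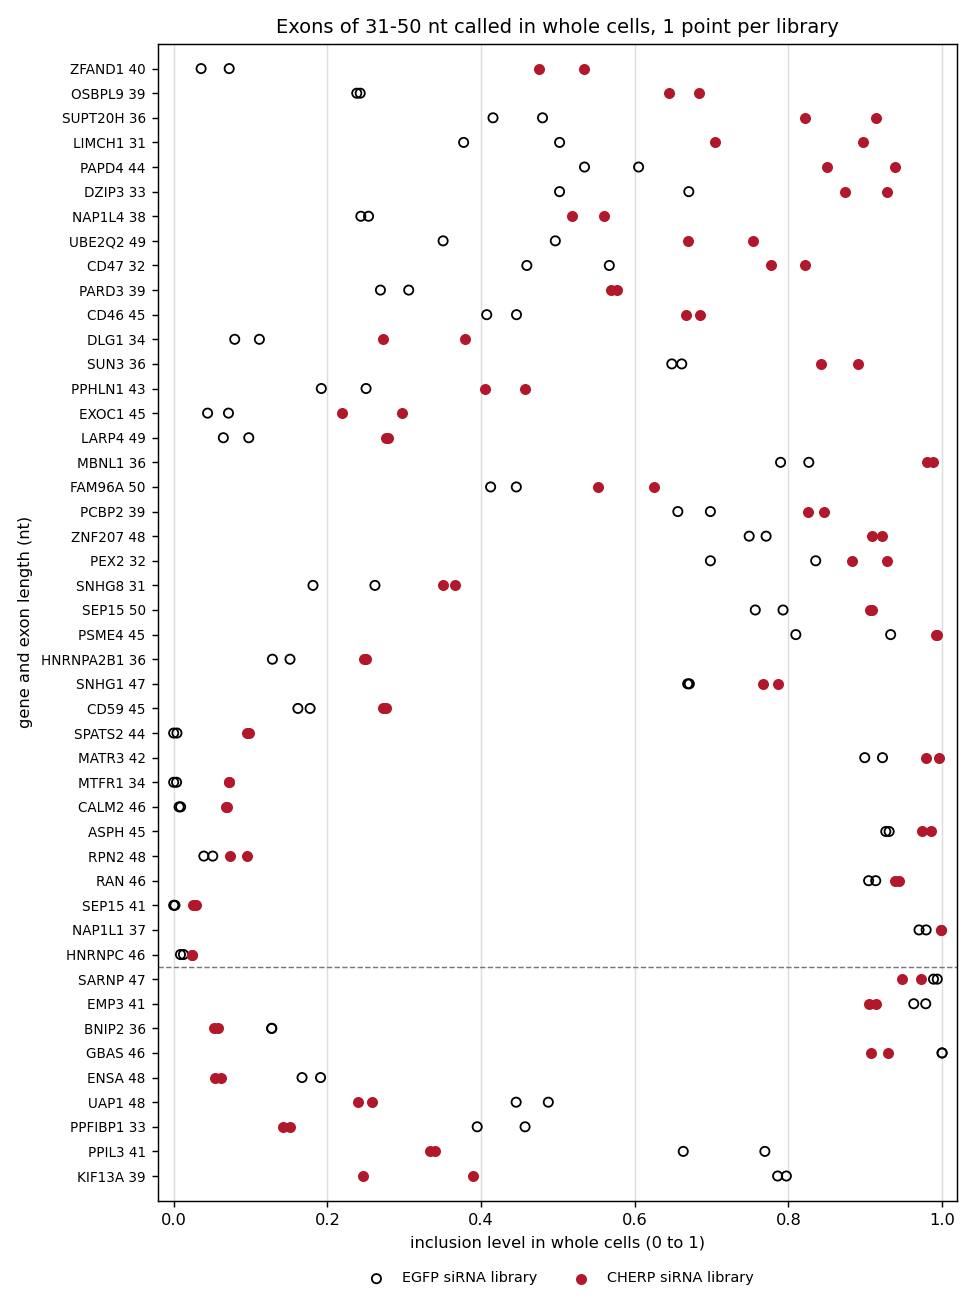
Inclusion level in each whole-cell library for 46 of the 48 exons of 31 to 50 nt called in whole cells, ordered by the difference, with gene name and exon length in nt. Open circles are EGFP and filled circles are CHERP siRNA libraries; 37 exons lie above and 9 below the dashed line, from ZFAND1 at 0.45 to KIF13A at -0.473.

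Splicing factors and other RNA-binding proteins had 66 short exons in 44 of the 115 genes listed, and in whole cells 3 of 61 tested were called higher and 0 lower, where 1.49% of all short exons were called higher. These counts, like those of the other lists, are too small to set a list apart from the rest of the short exons. HNRNPA2B1 had the deepest of them. Its 36 nt second exon separates the longer B1 protein from the A2 protein. The level was 0.151 and 0.128 against 0.25 and 0.248, on 4322 to 5045 reads (adjusted p = 3.01e-38). MBNL1, a splicing regulator lost to repeat RNA in myotonic dystrophy, had 0.79 and 0.827 against 0.988 and 0.981 at its 36 nt exon (adjusted p = 0.00824), a call that held in 1 of the 4 fits without a library. HNRNPC rose at a 46 nt exon of the 5′ UTR from 0.0108 ± 0.0028 to 0.024 ± 0.00066 (adjusted p = 0.0216). That difference is small, and the call also held in 1 of the 4 fits. PCBP2, a poly(C)-binding protein not among the listed genes, rose at a 39 nt exon from 0.677 ± 0.03 to 0.836 ± 0.015 (adjusted p = 5.96e-14).

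In the other gene lists few short exons were called. Ubiquitin and proteasome genes had 3 of 55 called higher, those of ZFAND1, UBE2Q2 and PSME4. PSME4, a proteasome activator, had 0.81 and 0.933 against 0.993 and 0.992 at its 45 nt exon (adjusted p = 0.0237), a call that held in 1 of the 4 fits that leave out a library, with an adjusted p of up to 0.609. Genes of the actin cytoskeleton and adhesion had 1 of 64 called higher, LIMCH1, and 2 called lower, among them PPFIBP1. Membrane traffic and autophagy genes had 1 of 48 called higher in whole cells, EXOC1, and 2 of 25 in the cytoplasm, DNM1L and ATG3. No short exon was called in whole cells or cytoplasm by the quasi-binomial test among those of mitosis and cell cycle genes (24 tested in whole cells), centrosome and cilium genes (16), DNA repair and replication genes (32), chromatin and transcription regulators (44), or kinases and phosphatases (69). An unadjusted p under 0.05 was reached by 19 of these 185 exons in whole cells and by 2 of 97 in the cytoplasm, and limma called 0 of them as well, with 13 and 7 at an unadjusted p under 0.05. Among well-read exons the median difference was 0.0022 for splicing factors and 0.0042 for ubiquitin genes, against 0.0045 over all short exons. The highest median, 0.022, was that of DNA repair and replication genes over 20 exons.

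Some gains were small. CALM2, a calmodulin gene, had a 46 nt exon in its 5′ UTR with levels of 0.00702 and 0.00903 against 0.068 and 0.0695, on 5809 to 8162 reads (adjusted p = 3.85e-89). CD59, an inhibitor of the complement attack, rose at a 45 nt exon of its 5′ UTR from 0.17 ± 0.011 to 0.275 ± 0.0026 (adjusted p = 2.08e-07). Exons nearly absent from control cells appeared in SPATS2, with 0.00426 and 0 against 0.0981 and 0.0954, and in MTFR1, with 0 and 0.00375 against 0.0718 and 0.072. The annotation places these exons, of 44 and 34 nt, only in transcripts marked for nonsense-mediated decay (NMD). Their calls held in 4 and 0 of the fits that leave out a library, in that order. SEP15, the gene of the endoplasmic reticulum selenoprotein SELENOF, had 2 called exons. Its 50 nt exon rose from 0.775 ± 0.026 to 0.908 ± 0.0019 (adjusted p = 2.41e-08), and its 41 nt exon, with 0.00167 and 0 in control cells, had 0.0285 and 0.0256 (adjusted p = 0.00075).

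The losses were fewer. The 39 nt exon of KIF13A, a kinesin motor, had 0.786 and 0.797 in control libraries and 0.247 and 0.39 after CHERP siRNA (adjusted p = 0.00646), on only 34 to 60 reads per library. PPFIBP1, which encodes liprin-beta-1, fell at a 33 nt exon from 0.426 ± 0.044 to 0.147 ± 0.0064 (adjusted p = 0.00118). ENSA, an inhibitor of the phosphatase PP2A, fell at a 48 nt exon from 0.179 ± 0.017 to 0.0581 ± 0.0059 (adjusted p = 1.21e-08). UAP1, which makes UDP-N-acetylglucosamine, had 0.446 and 0.488 against 0.24 and 0.258 at a 48 nt exon that GENCODE does not list at these ends (adjusted p = 4.95e-07). The losses of ENSA and UAP1 held in all 4 fits that leave out a library. That of KIF13A held in 2 and that of PPFIBP1 in 1.

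A further 5 losses had adjusted p-values between 0.0224 and 0.0491, and each passed in at most 1 of those fits. PPIL3, a cyclophilin, had 0.769 and 0.663 against 0.334 and 0.34 at a 41 nt exon found only in NMD transcripts, on 37 to 88 reads. GBAS, a mitochondrial protein also named NIPSNAP2, had 1 and 1 against 0.93 and 0.908 at a 46 nt exon. BNIP2 had 0.128 and 0.127 against 0.0518 and 0.0575 at a 36 nt exon. EMP3, a membrane protein, had 0.979 and 0.963 against 0.904 and 0.914 at a 41 nt exon. SARNP, a component of the TREX mRNA export complex, had 0.994 and 0.989 against 0.973 and 0.947 at a 47 nt exon.

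Of the 48 called exons, 12 gains and 2 losses passed in all 4 fits that leave out a library. The gains were those of ZFAND1, OSBPL9, NAP1L4, PARD3, CD46, SUN3, PCBP2, SEP15 (50 nt), HNRNPA2B1, CD59, SPATS2 and CALM2. The 5 best-read exons that were used at intermediate levels and were not called were those of C17orf76-AS1, MYL6, GNAS, TATDN1 and SRSF7. MYL6, a myosin light chain, had 0.231 and 0.154 against 0.233 and 0.241 at its 45 nt exon (adjusted p = 0.32), where the control libraries differed more than the siRNAs did. SRSF7, an SR splicing factor, had 0.882 and 0.871 against 0.839 and 0.831 at a 36 nt exon (adjusted p = 0.766). The 44 nt exon of C17orf76-AS1, a noncoding RNA, had 0.106 and 0.0958 against 0.117 and 0.126, and the 50 nt exon of TATDN1 had 0.909 and 0.858 against 0.852 and 0.872. A p that misses the threshold does not show that these levels were equal.

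Called exons were found among those that keep the reading frame and among the others. Of the 2777 exons, 2019 (72.7%) were wholly coding, 218 lay in a 5′ UTR, 180 were found only in NMD transcripts and 225 only in noncoding transcripts. Of the coding ones 904 (44.8%) had a length divisible by 3, close to the 43.9% of coding exons of other lengths. Of the 38 gains 24 were wholly coding, and 15 of these kept the frame. Among coding exons tested in whole cells, 1.83% of the 821 with a length divisible by 3 were called higher and 0.869% of the 1036 others. Coding exons of other lengths had a like difference, with 0.558% and 0.23%. Short exons that were not wholly coding were called higher at 2.01% (14 of 697), against 0.66% of such exons of other lengths. A higher mean level was found for 393 of 619 well-read exons that keep the frame and for 540 of 831 that do not. Of the 10 losses 8 were wholly coding and 5 of these kept the frame.

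Exons called in whole cells could be read again in the cytoplasmic libraries. The same event was listed there for 31 of the 38 gains, and the mean level was higher with CHERP siRNA in 31 of the 31. The median difference of these was 0.16 in the cytoplasm and 0.159 in whole cells, although the median of mean reads per library was 65.25 against 277.5. 7 of them were called in the cytoplasm too. Of the 7 losses listed there, 6 were lower in the cytoplasm and 0 were called. The exception was SARNP, with a difference of 0.0015. The fractions share no library, but they share the siRNAs, and the labels do not say whether they came from the same transfections.

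The 10 exons called in the cytoplasm were led by OSBPL9, with 0.188 and 0.404 against 0.915 and 0.828 (adjusted p = 0.000182). PCBP2 had 0.592 and 0.605 against 0.767 and 0.775 on 768 to 1063 reads (adjusted p = 1.24e-11). HNRNPA2B1 had 0.0964 and 0.0877 against 0.174 and 0.176 (adjusted p = 9.3e-06). NAP1L4, SUN3, ZNF207 and CALM2 were called as well. Only 3 of the 10 calls, those of PCBP2, HNRNPA2B1 and GNAS, held in all 4 fits that leave out a library. The adjusted p of OSBPL9 reached 0.101 without 1 library, and the call of CALM2 held in 1 of the 4 fits, with up to 0.158. The level of the CALM2 exon was 0.0536 and 0.0756 against 0.251 and 0.356, above its whole-cell level under the same siRNA. ZNF207, a microtubule-binding factor of the spindle checkpoint, had 0.704 and 0.657 against 0.894 and 0.872 at its 48 nt exon (adjusted p = 0.031), a call that held in 0 of the 4 fits that leave out a library.

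DNM1L, GNAS and ATG3 were called in the cytoplasm and not in whole cells. DNM1L, the dynamin of mitochondrial fission, had 0.408 and 0.561 against 0.861 and 0.919 in the cytoplasm (adjusted p = 0.0163) and 0.48 and 0.453 against 0.656 and 0.651 in whole cells (adjusted p = 0.0506). GNAS encodes the stimulatory G protein alpha subunit, and its 45 nt exon, exon 3 of 13, separates the long from the short form. Its level was 0.473 and 0.49 against 0.616 and 0.586 in the cytoplasm (adjusted p = 4.01e-06), and 0.523 and 0.494 against 0.551 and 0.563 in whole cells (adjusted p = 0.784). ATG3, the conjugating enzyme of LC3 lipidation, had 0.905 and 0.853 against 1 and 0.958 at its 50 nt exon in the cytoplasm (adjusted p = 0.049). All 3 exons were higher in both fractions. The cytoplasmic call of GNAS held in all 4 fits that leave out a library, those of DNM1L and ATG3 in 1, where the adjusted p reached 0.744 and 0.916.

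A difference between the fractions was tested itself, as the interaction of siRNA and fraction. None of the 1174 short exons read at the same event in both fractions passed the quasi-binomial interaction test, with a smallest adjusted p of 0.941, and 0.0% of the 20231 exons of all lengths passed. An unadjusted p under 0.05 was found for 36 of the 1174 (3.07%) and for 2.94% of all. GNAS had an unadjusted interaction p of 0.00704 in this quasi-binomial model fitted across all events, ATG3 had 0.00821 and DNM1L had 0.0131. With few cytoplasmic reads, a difference between fractions was not detectable at this depth for most exons.

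**Figure D5:**
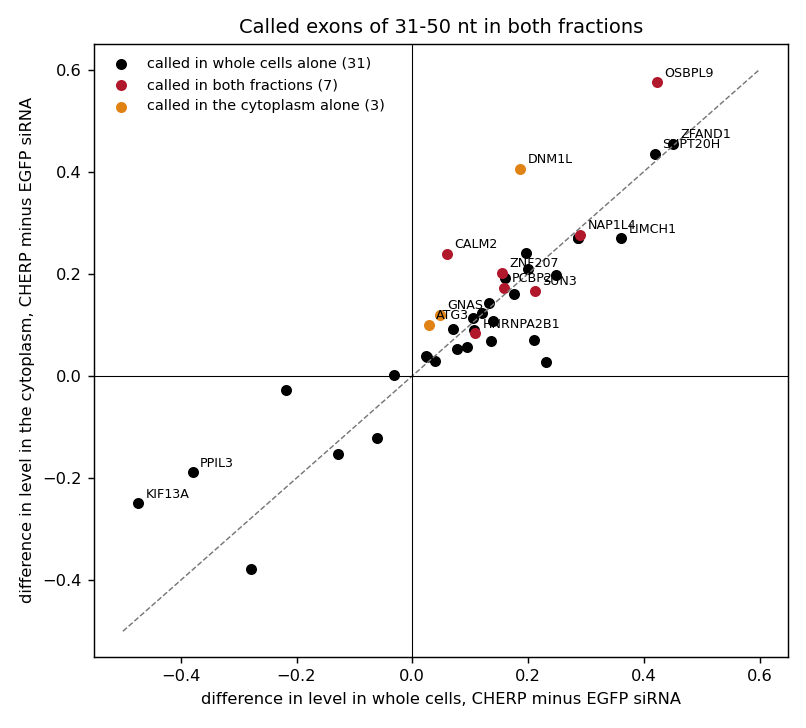
Difference in inclusion level (CHERP minus EGFP siRNA) in the cytoplasm against that in whole cells for the exons of 31 to 50 nt called in either fraction and listed in both, 1 point per exon, with the line of equal values dashed. All 31 gains of whole cells lie above 0 in the cytoplasm, and DNM1L, GNAS and ATG3 were called in the cytoplasm alone.

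Other cassette events that held the same exons were read as well. In whole cells 23 of the 48 called exons had 33 further cassette events with other flanking exons, of which 24 moved in the direction of the call, 8 moved in the other and 1 had no level in a group. A single one of these, in NAP1L1, was called, in the same direction. The event of OSBPL9 with the fewer reads had a difference of -0.035 on 24 reads, against 0.423 at the event reported above, and CD46, CD47, CD59, SNHG1, UBE2Q2 and ZNF207 also had a further event with a difference below 0. SARNP, called lower with a difference of -0.031, had a further event with 0.0045 on a mean of 494.5 reads. In the cytoplasm 6 of 8 further events had the direction of the call and 0 were called. Events of DNM1L (-0.023) and CALM2 (-0.054) had the other direction.

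Mutually exclusive exon (MXE) events, in which either of a pair of neighbouring exons is used, held a short exon in 1437 cases in whole cells, and 35 of these (2.44%) were called, against 1.6% of all MXE events. In 3 of the 35 both exons were short. The form with the short exon was higher with CHERP siRNA in 23 of the other 32 events and lower in 9. The 35 called events held 31 distinct short exons, so some exons are counted more than once. The form with the short exon was higher by 0.356 for DLG1, by 0.162 for PARD3 and by 0.157 for OSBPL9, exons that also rose as cassette exons. It was also higher by 0.332 for a 49 nt exon of LETMD1, a mitochondrial protein, whose cassette event was not called. Among the 9 events where it was lower were those of MLF1IP (by 0.18), CD164 (by 0.179) and EWSR1 (by 0.111). The cassette events of these exons were not called. In the cytoplasm 2 of 484 such events were called, against 0.863% of all. With the dispersion taken from events whose rarer form had 10 reads or more, 15 of the 35 whole-cell calls passed the threshold, and 0 of the 2 in the cytoplasm.

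Retained introns beside a short exon were rarer. In whole cells 200 retained intron (RI) events lay next to a short exon, and 8 (4.0%) were called, 4 higher and 4 lower, against 3.26% of all RI events. RBM39, a splicing factor, retained an intron beside its 50 nt exon at 0.112 and 0.164 against 0.294 and 0.259. CD46 retained an intron beside its 42 nt exon at 0.0831 and 0.0719 against 0.179 and 0.252. NXF1, the mRNA export receptor, had 0.179 and 0.164 against 0.286 and 0.31 beside its 37 nt exon. In the cytoplasm 2 of 127 such events were called, against 2.12% of all. SNHG1 was the only gene in which an exon called in whole cells, of 47 nt, bordered a called intron, and that intron was lower, with 0.312 and 0.277 against 0.211 and 0.23 (adjusted p = 0.0419 by the quasi-binomial test). With the dispersion of events whose rarer form had 10 reads or more, 6 of the 8 whole-cell calls passed, and that of SNHG1 did not (adjusted p = 0.0808).

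The abundance of the genes did not move in a common direction with their short exons. Gene abundance was the sum of reads over effective length at the splicing events of a gene, tested with limma, and fewer cells and less RNA per cell cannot be told apart in such data. In whole cells 459 of the 2044 tested genes with a short exon were higher and 414 lower, where 18.8% of all genes tested were higher and 18.4% lower. In the cytoplasm 448 of 1690 were higher and 437 lower, where 24.6% of all were higher and 23.6% lower. With scaling to the library total the cytoplasmic counts were 348 higher and 528 lower, since that scaling moved the median of all genes by -0.098 on the log2 scale. Of the 37 genes with a gain, 10 were higher and 8 lower in whole cells, with a median log2 fold change of -0.023. Of the 10 genes with a loss, 4 were higher and 3 lower.

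Single genes changed strongly in abundance. LIMCH1 fell by 2.93 ± 0.14 (SE) on the log2 scale in whole cells by limma (adjusted p = 3.61e-06), so that its 31 nt exon was read at 35 to 290 reads. NAP1L1 fell by 1.40 ± 0.11 (adjusted p = 2.43e-05). UAP1, whose exon fell, rose by 1.40 ± 0.12 (adjusted p = 5.05e-05), and CD47 rose by 0.93 ± 0.12 (adjusted p = 0.000372). SPATS2 fell by 0.55 ± 0.11 in the cytoplasm by limma (adjusted p = 0.00142), whereas its whole-cell change of -0.16 ± 0.11 was not called (adjusted p = 0.298). Whether its NMD exon had a part in this was not tested.

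CHERP itself was lower in every CHERP siRNA library. Its splicing events had 103 and 77 reads against 3 and 10 in whole cells, a log2 fold change of -3.46 ± 0.57 (SE) by limma (adjusted p = 0.00146). In the cytoplasm, with 31 and 21 reads against 3 and 4, it was -2.66 ± 0.38 without the filter on low reads (adjusted p = 4.04e-05). The whole-cell libraries had 19287081 to 23480646 reads on skipped exon events, of which 534773 to 662919 lay on the short exons, and the cytoplasmic libraries had 3826409 to 4685633 and 95198 to 115474. Of 8 markers of osteosarcoma and mesenchymal cells, 4 had an event, and VIM had 57402 to 80880 reads in whole cells, while RUNX2 had 16 and 18 against 0 and 3. COL1A1, COL1A2, SPARC and TWIST1 had no event and so no value. Of 10 markers of other cell types, 4 had an event in whole cells, with summed levels of 38.7 to 51.4 with EGFP and 31.2 to 31.9 with CHERP siRNA, mostly KRT8 with 12305 to 19315 reads. RBFOX3, a neuronal splicing regulator, had 7 and 4 reads against 51 and 30 in whole cells and 13 and 15 against 91 and 107 in the cytoplasm. CDH1 had 1 and 1 against 22 and 15, and SYP 49 and 61 against 113 and 168. Their part in the results on short exons was not tested.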

How the data were processed

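U2OS RNA was sequenced from 8 libraries, and only the 10 rMATS tables were used. Per the labels and the methods, the authors mapped reads to hg19 with STAR 2.5.2b and ran rMATS, whose version is not given in the sources used here. The deposited read values are counts of reads on the inclusion and skipping forms, 2 libraries to a cell, not normalized, with the effective length of each form (144 for skipping in whole cells and 73 in the cytoplasm, plus the exon length for inclusion). The 20 deposited columns of inclusion levels, the authors' p-values, FDR and level differences, and a table of expression made with RSEM 1.2.25 were not used. The libraries in a cell carry no replicate number and are named first and second by their order.

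Each event was tested by a quasi-binomial comparison of its inclusion and skipping reads. Pearson dispersions were shrunk to a trend on mean reads, never under 1, over the whole table (squeezeVar; limma 3.58.1, R 4.3.3). With infinite prior degrees of freedom, every event took the trend and its own replicate spread did not enter its p. Benjamini-Hochberg adjustment ran over all events of a table, with a threshold of 0.05. The interaction compared the siRNA effect between fractions in a log-linear model. Gene abundance was tested with limma using log2(value + 0.01), keeping genes that averaged 20 reads or more. Sequences and gene parts came from GRCh37 and GENCODE 44 lifted to it, with pysam and Python 3.11.15, and splice sites were scored by log2 odds under base frequencies of all listed exons against 0.25 per base. The quasi-binomial tests of cassette exons and of the interaction, and limma on gene abundance, were also run on simulated data. The fits of MXE and RI events and limma on the log2 odds were not. Simulated cassette counts were drawn with the fitted dispersion, so they do not check it.

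Named exons were those past the threshold with non-overlapping libraries and a mean of at least 20 reads, the 15 largest changes each way in whole cells and 8 in the cytoplasm, up to 3 per gene list, and the 5 best-read exons without a call at control levels of 0.1 to 0.9; exons named beyond these were chosen after their values were seen. Exons and lists were chosen with earlier results of these data known. Intervals on shares were not computed. Quasi-binomial p-values rest on the spread between 2 replicates, pooled over events of similar depth, and not on that of the single event. Some called exons and sequences are not reported here.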

Additional observations from a re-analysis of the deposited data

How the results depend on the processing

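No paired analysis was possible because the libraries in a cell of the tables carry no replicate number. Of the 48 calls in whole cells and the 10 in the cytoplasm, none was made by limma on the log2 odds of inclusion. It called 0 in either fraction and 0 of the 39 named exons in whole cells. Its unadjusted p was under 0.05 for 241 of 2554 short exons and 5266 of 63977 events in whole cells. In the cytoplasm it was so for 138 of 1397 short exons and 2631 of 31924 events. Leaving out a library gave 21 to 44 calls in whole cells and 5 to 8 in the cytoplasm, and 14 to 24 of the 39 named exons passed, against 32 with all libraries. With the dispersion taken from events whose rarer form had 10 reads or more, the cytoplasm had 26 calls, 24 higher and 2 lower, which held all 10, and whole cells had 54. Filters at 10 or 50 mean reads gave 50 and 51 calls in whole cells and 10 and 9 in the cytoplasm. A difference of at least 0.1 left 33 and 9, and counting every event gave 55 and 10. The interaction had 0 calls under each of its alternatives. Without division by the effective length, the median control level of the 39 named exons was 0.503 in place of 0.448. Genes with a short exon called for abundance numbered 526 to 1162 in whole cells and 772 to 826 in the cytoplasm without a library. No called exon changed sign at its own event without a library or without division by length, but 8 of 33 further events of the called exons in whole cells and 2 of 8 in the cytoplasm had the other sign. The comparison of single libraries was added after seeing the data. With 2 libraries a group, and 33.4% of the cytoplasmic short exons under 10 mean reads, small changes were not detectable at this depth.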
